A study of Mus musculus with 22 samples.

Results

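Heavy polysomal mRNA of mouse liver was compared between 4 h after injection of tunicamycin (Tm) and the 0 h group. Heavy polysomes are mRNAs with more than 3 ribosomes attached, and their sucrose gradient fractions were pooled before RNA extraction. The unit of measurement was the locus, under which Cufflinks had grouped transcripts that overlap. A locus was included when the authors' estimate was complete in both polysomal groups and the mean of both group means was at least 50 scaled fragments. By this rule 9318 of 39897 loci were included, 30561 fell under the minimum and 18 lacked a complete estimate in a group. In addition, 5 of the 9318 had been skipped by Cuffdiff in 4 h polysomal libraries and were listed there at 0, so they were set aside and 9313 loci were analysed.

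The livers came from 5-week-old C57BL/6 males. Mice of the 4 h group received 0.1 mg/kg Tm intraperitoneally and were culled at 12 noon. Mice of the 0 h group were culled at 9 am. The labels list tunicamycin for them too, but the methods call them controls. The time of day therefore moved with the time after Tm, and both cannot be told apart. By the labels, heavy polysomal RNA gave 3 libraries for 4 h, 2 for 0 h and 2 for 2 h (0.1 mg/kg Tm, culled at 10 am), and total RNA gave 3 libraries for each of these times. The table holds 3 read groups for polysomal RNA at 0 h and also 3 at 2 h, and which of them are the listed libraries is not stated. For this reason the 0 h and 2 h levels are the authors' group means with no spread of their own. The 3 libraries at 4 h were set beside the 0 h mean one by one, and no test was made of the polysomal change. Counted fragments ranged from 12843966 to 13726378 in the polysomal libraries at 4 h and from 9788578 to 17283500 in the 9 total RNA libraries.

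Tm blocks N-linked glycosylation, so that misfolded proteins accumulate in the endoplasmic reticulum (ER). The sensor kinase PERK then phosphorylates the initiation factor eIF2α, which lowers translation initiation, while the IRE1 and ATF6 branches of the unfolded protein response raise transcription of chaperone and other stress genes. The amount of an mRNA in heavy polysomes depends on its abundance and on how many ribosomes it carries, so both arms of the response can move it. The libraries were scaled to a common level, and each change below is relative to the other mRNAs, not an amount per liver or per cell. In whole liver, a loss of cells of one type and a loss of RNA per cell cannot be told apart. The files pair the loci with no gene names or positions, so neither genes, pathways nor marker genes of liver cell types were examined, and no sequence is given.

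At 4 h after Tm, 622 loci (6.68% of the 9313) were at least 2-fold higher in heavy polysomes than at 0 h and 466 (5.0%) were at least 2-fold lower. The other 8225 loci (88.3%) lay within 2-fold. The change is the log2 of the 4 h group mean plus 1 minus the log2 of the 0 h group mean plus 1, so it understates the change of loci with few fragments. The median change was 0.04 and the SD across loci was 0.73. At least 4-fold, 110 loci were higher and 28 lower, and at least 16-fold, 21 were higher and 5 lower. The far changes include loci near the floor of the measurement: 7 higher loci had a 0 h mean under 10 and 1 was listed at 0 there, while no lower locus had a 4 h mean under 10. The largest rise, 8.78 on the log2 scale, was at a locus with a 0 h mean of 5.86, and the largest fall was -5.88. With both means at least 50, the counts were 73 and 14 at 4-fold and 3 and 4 at 16-fold, and the largest rise was 7.17. Which direction held more loci at 2-fold depended on the scaling: with the upper quartiles of both groups set equal, 528 loci were higher and 562 lower. With each change set against the median of loci of like length, 565 were higher and 263 lower.

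**Figure D1:**
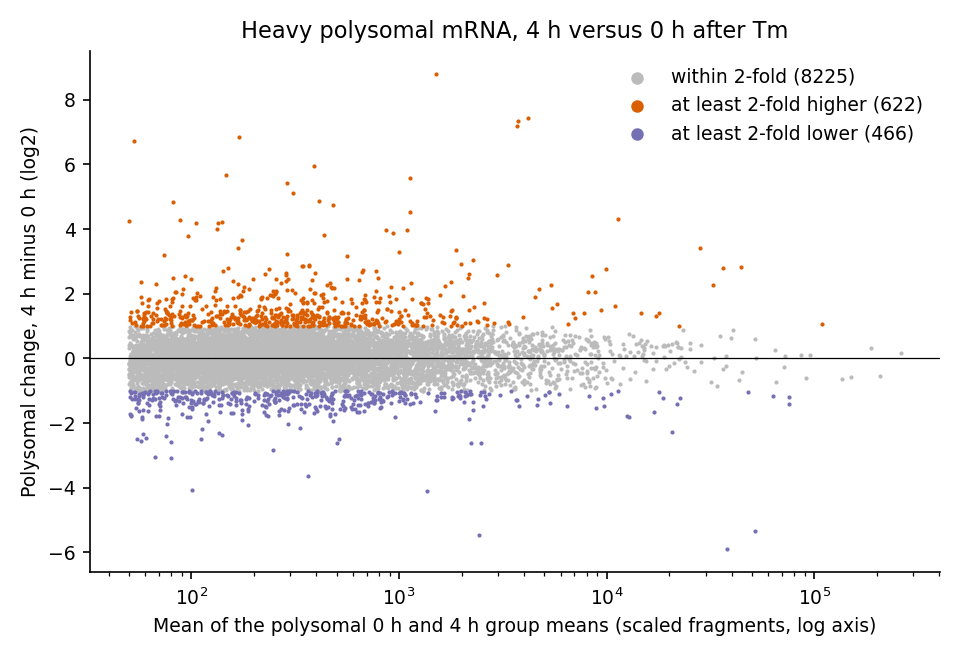
Each point is 1 of the 9313 loci. The x axis gives the mean of the polysomal group means at 0 h and 4 h in scaled fragments (log axis), and the y axis the log2 change from 0 h to 4 h. The 622 loci at least 2-fold higher (orange) reach a change of 8.78, at a locus with a 0 h mean of 5.86, while the 466 at least 2-fold lower (purple) end at -5.88.

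Set beside the 0 h mean, the 3 libraries at 4 h were each at least 2-fold higher in 406 loci (4.36%) and each at least 2-fold lower in 258 loci (2.77%). They were all above the 0 h mean in 618 of the 622 higher loci and all below it in the 466 lower loci. The single libraries gave 615, 831 and 522 higher loci and 645, 640 and 386 lower loci, so library 3 showed the fewest changes in both directions. With a library left out, the count of lower loci past 2-fold in all remaining libraries cannot fall below 258. It was 295 without library 1, 294 without library 2 and 427 without library 3. The SD of the log2 level among the 4 h libraries had a median of 0.18 over all loci, 0.21 over the higher loci and 0.24 over the lower loci. Pearson correlations of the log2 levels between the 4 h libraries were from 0.976 to 0.986 across loci, which are not independent replicates. These spreads cover the 4 h side only.

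The minimum mean lets a locus in through either group. Of the higher loci, 110 had a 0 h mean under 50, and of the lower loci, 82 had a 4 h mean under 50. With both means at least 50, 8887 loci were left, of which 512 were higher and 384 lower. The 200 loci just inside the minimum, with means up to 55.9, had an SD of change of 0.89, with 11 higher and 19 lower. The 200 just outside it, with means down to 45.6, had an SD of 0.65, with 10 higher and 13 lower.

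To ask how far these changes followed mRNA abundance, total mRNA at 4 h and 0 h was tested in other libraries, 3 per time point, with edgeR's quasi-likelihood test. Of the 9313 loci, 9306 were tested, and 475 (5.1%) were called higher and 216 (2.32%) lower, 7.43% together. A call needed a 2-fold or larger change and, after Benjamini-Hochberg adjustment, a p under 0.05. Over all 12612 loci tested the shares were 5.08% higher and 3.46% lower, 8.54% together. The balance of calls turned with the scaling of these counts too: 641 loci were called higher and 436 lower with TMM factors, and 500 and 618 with upper-quartile factors. The methods give 3 mice per time point, so total and polysomal libraries at 4 h came from shared animals, although no label ties one library to another. The total RNA libraries are thus separate measurements but not separate mice.

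Every one of the 475 loci called higher in total mRNA had a polysomal change above 0, and each of the 216 called lower had one below 0. Among those called higher, 404 (85.1%) were at least 2-fold higher in polysomes, with a median polysomal change of 1.44 beside a median total change of 1.35 in the authors' means. Among those called lower, 140 (64.8%) were at least 2-fold lower in polysomes, with a median polysomal change of -1.20 beside a median total change of -1.23. The median of the higher calls was 1.40, 1.59 and 1.35 in the 3 polysomal libraries at 4 h, and that of the lower calls -1.14, -1.30 and -1.16. The 8615 loci not called in total mRNA had a median polysomal change of 0.02 and a range from -0.91 to 0.85 between the 5th and 95th percentiles.

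**Figure D2:**
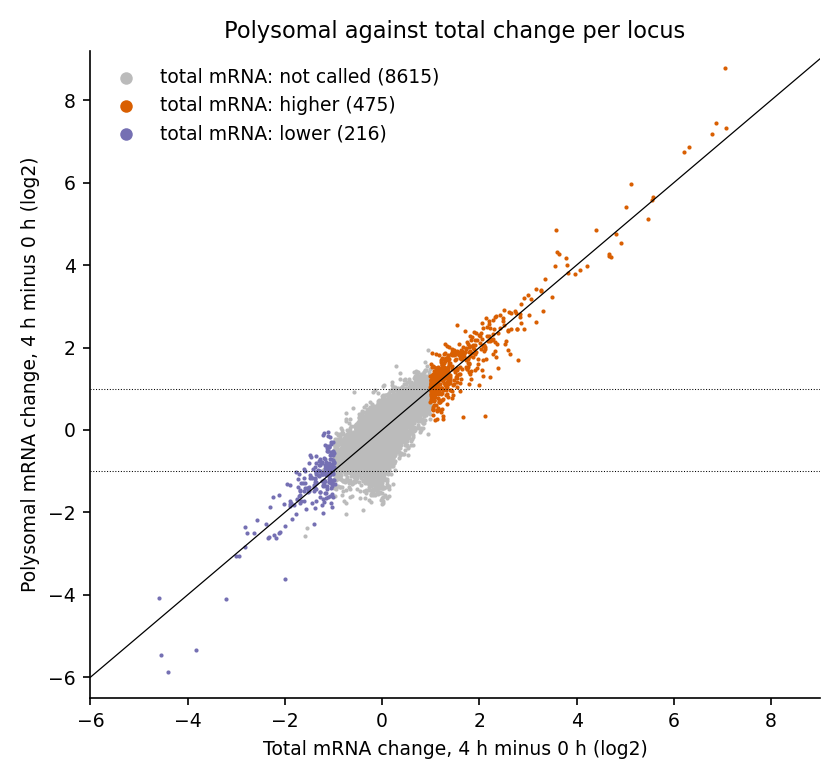
Each point is a locus, with the log2 change of total mRNA from 0 h to 4 h on the x axis and that of heavy polysomal mRNA on the y axis, both from the authors' group means. The diagonal marks equal changes and dotted lines mark 2-fold in polysomes. The 475 loci called higher (orange) and 216 called lower (purple) in total mRNA follow the diagonal. The 8615 not called (gray) extend further below it than above it, though 4737 of them lie above it and 3878 below.

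The polysomal change rose with the total change through its whole range. In the 37 loci whose total mRNA rose by more than 3 on the log2 scale, the median total change in the edgeR fit was 4.09 and the median polysomal change 4.22, and all 37 were at least 2-fold higher in polysomes. In the 7 loci whose total mRNA fell by 3 or more, the medians were -3.83 and -4.11, and all 7 were lower in polysomes. In the 70 loci with a total rise from 2 to 3 on the log2 scale the polysomal median was 2.32 beside a total median of 2.31. In the 18 with a total fall of the same size it was -2.48 beside -2.35. All 110 loci at least 4-fold higher in polysomes were called higher in total mRNA. Of the 28 at least 4-fold lower, 25 were called lower.

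The smaller changes were shared less evenly between the directions. Of the 512 loci that were from 2-fold to 4-fold higher in polysomes, 294 (57.4%) were called higher in total mRNA. Of the 438 that were from 2-fold to 4-fold lower, 115 (26.3%) were called lower. The 218 higher loci without a call had a median total change of 0.78, and the edgeR estimate was above 0 in all of them. The 326 lower loci without a call had a median total change of -0.23, and in 250 of them total mRNA had changed by less than 1.5-fold in the authors' means. Without the minimum fold change for a call, 597 of the 622 higher loci were called higher in total mRNA. Of the 466 lower loci, 229 were then called lower. No locus went up at least 2-fold in polysomes while called lower in total mRNA, and none went the opposite way.

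In the edgeR fit, total mRNA of 4551 loci changed by less than 1.2-fold with an adjusted p of at least 0.05. Of these, 176 (3.87%) were at least 2-fold lower in polysomes, against 5.0% of all 9313 loci. Only 7 were at least 2-fold higher, against 6.68% of all loci. All 3 libraries at 4 h were past 2-fold in 101 of those 176 and in none of the 7. With the upper quartiles set equal the numbers were 212 and 3. Of the 176 lower loci, 152 belonged to the shortest of 10 equal classes of locus length. After each change was set against the median of loci of like length, 8 of the 4551 were lower and 32 higher.

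The relative length of a locus was estimated from its fragments and FPKM in the total RNA libraries, with the median locus set to 1. The bias correction in the FPKM also enters this estimate. The shortest class held 932 loci with a median relative length of 0.240. In this class 814 loci (87.3%) were below their 0 h level in polysomes, with a median change of -0.64, and 238 (25.5%) were at least 2-fold lower against 12 (1.29%) at least 2-fold higher. The median change was -0.82, -0.64 and -0.53 in the 3 libraries at 4 h. In total mRNA the median change of the same loci was -0.08. The next class had a median of -0.22 in polysomes, and from the fifth class upward the medians lay between 0.16 and 0.23. From the shortest class upward the median rose up to the sixth class, and the longest class had a median of 0.20, with 81 loci higher and 22 lower. The 3 libraries differed most from each other in the shortest class, and the spread of this class among 0 h libraries was not measured, so its part in the length trend was not tested.

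**Figure D3:**
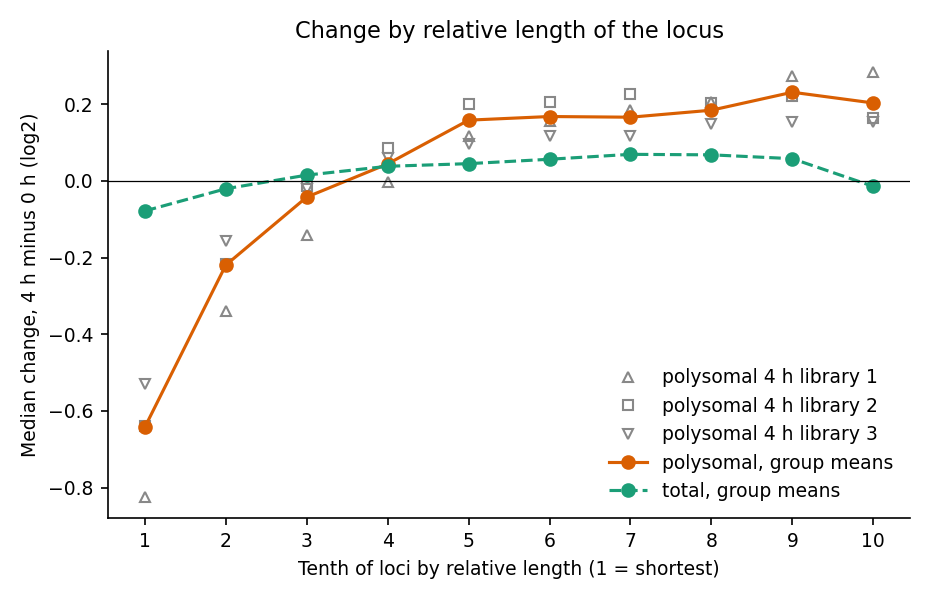
The x axis gives 10 equal classes of loci by relative length, from the shortest (1) to the longest (10), and the y axis the median log2 change from 0 h to 4 h. Filled orange points are the polysomal group means, open symbols the 3 polysomal 4 h libraries against the 0 h mean, and green points the total mRNA means. The polysomal median is -0.64 in the shortest class and 0.20 in the longest, while the total mRNA median is -0.08 in the shortest class and -0.01 in the longest.

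The shortest class was set lower in polysomes than in total mRNA among loci with every kind of call. In the 894 short loci not called in total mRNA, the polysomal change lay below the total change in 807 (90.3%), with a median difference of -0.57. In the 16 called lower it lay below in 15, with a median difference of -0.57, and all 16 were at least 2-fold lower in polysomes. In the 19 called higher it lay below in 13, with a median difference of -0.26, and 12 were still at least 2-fold higher in polysomes. For these 19 the median difference was -0.32, -0.07 and -0.25 in the single libraries at 4 h, so it was small in library 2. In the other 9 classes the same differences had medians of 0.09 for loci not called, 0.17 for those called lower and 0.08 for those called higher. For those called higher the median was 0.02, 0.16 and -0.06 in the single libraries at 4 h, so its sign differed between them. For loci not called and those called lower it was above 0 in each library. In these 9 classes, 218 of 7721 loci not called in total mRNA were at least 2-fold higher in polysomes and 104 were at least 2-fold lower.

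The lower loci thus held groups of different length. The 326 without a call in total mRNA had a median relative length of 0.248, and 222 of them (68.1%) were in the shortest class. The 140 that were called lower in total mRNA had a median relative length of 0.969, and 16 of them (11.4%) were in the shortest class. The higher loci had medians of 1.16 with a call in total mRNA and 1.42 without one, and 12 of the 622 were in the shortest class.

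The levels at 2 h, taken from the authors' mean with no spread, differed between these groups in their course. The loci were chosen on their change from 0 h to 4 h, and the 2 h and 4 h levels are set beside the same 0 h mean, so these courses are descriptions. In the 326 lower loci without a call in total mRNA, the median level was 581 scaled fragments at 0 h, 284 at 2 h and 235 at 4 h. In the 140 lower loci with a call, the level began at 208, stood at 198 by 2 h and reached 73.0 by 4 h. In 53 of these 140 the 2 h level was above the 0 h level. The higher loci with a call had median levels of 151, 223 and 503, and those without a call 164, 252 and 370. The 2 h level lay between the 0 h and 4 h levels in 567 of the 622 higher loci and in 357 of the 466 lower loci.

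**Figure D4:**
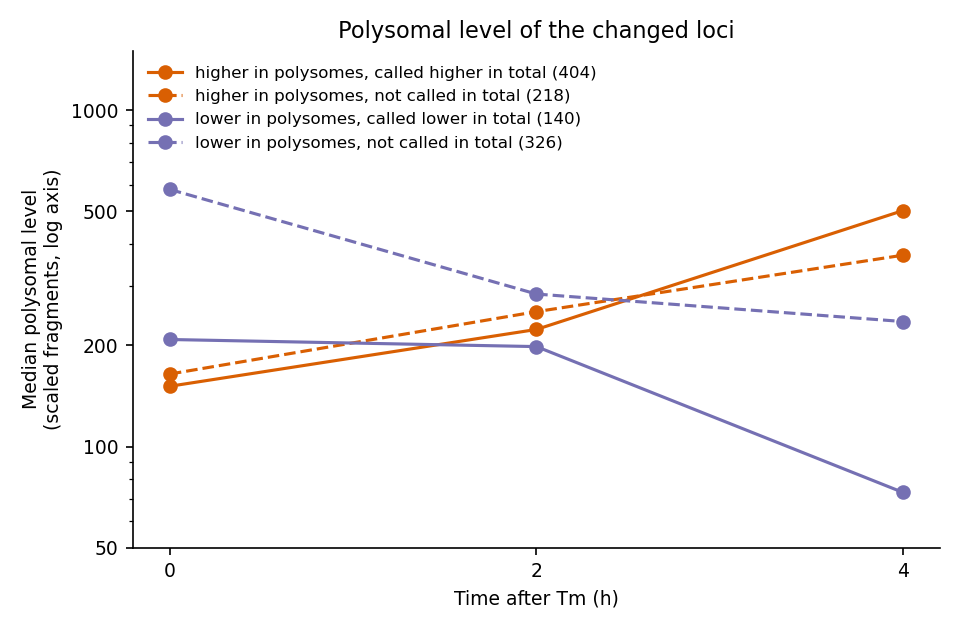
Lines join the median polysomal levels at 0 h, 2 h and 4 h (scaled fragments, log axis) of loci at least 2-fold higher (orange) or lower (purple) at 4 h, with a call in total mRNA (solid) or without one (dashed). Loci lower without a call are at 581, 284 and 235, and loci lower with a call at 208, 198 and 73.0.

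The shares of the polysomal pool held by these loci describe their size only, since a rise or fall of the share follows from how the loci were chosen. Shares are of the scaled fragments over the 39868 loci counted in the polysomal groups, without division by length. The 622 higher loci held 3.51% at 0 h, 5.68% at 2 h and 11.4% at 4 h, where the single libraries gave from 10.0% to 12.7%. The 404 with a call in total mRNA accounted for most of this, with 1.82% at 0 h and 7.71% at 4 h. The 466 lower loci held 12.3% at 0 h, 8.22% at 2 h and 4.29% at 4 h, with single libraries from 3.90% to 5.02%. The part without a call fell from 7.43% at 0 h to 3.50% at 2 h and 3.25% at 4 h. The part with a call went from 4.82% at 0 h to 4.72% at 2 h and 1.04% at 4 h. Few loci carried this part: its 10 most abundant at 0 h held 4.17% at 0 h and 0.840% at 4 h, and the other 130 held 0.656% and 0.200%. The lower loci without a call and the higher loci with a call also leaned on few loci. The higher loci without a call were not examined in this way. In the lower loci without a call, the 10 most abundant at 0 h held 4.13% of the 7.43% at 0 h and 1.84% of the 3.25% at 4 h. In the 404 higher loci with a call, the 10 most abundant at 0 h held 0.739% of the 1.82% at 0 h. At 4 h these 10 held 3.51% of the 7.71%. All loci of the shortest length class together held 22.8% at 0 h and 15.2% at 4 h. The 10 most abundant loci of each group held 15.2% at 0 h, 15.1% at 2 h and 13.7% at 4 h. The 10 most abundant included loci at 0 h, which were chosen for a high 0 h level, held 11.4% at 4 h, with 7 of them below their 0 h level and 3 of them at least 2-fold lower. Ranked by total mRNA at 0 h instead, the 10 most abundant held 11.5% of the polysomal pool at 0 h and 10.9% at 4 h, with 6 above and 4 below their 0 h level and 1 at least 2-fold higher.

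Loci were also ranked by total mRNA at 0 h, in libraries that the polysomal change does not use, though of mice from the same groups. In the 10 equal classes of this level the median polysomal change stayed between -0.03 and 0.09. The class with the least total mRNA had the widest spread, with an SD across loci of 1.15, 127 loci higher and 60 lower. A locus of this class could be included through its 4 h polysomal level alone, and with the minimum of 50 applied to the total 0 h mean instead, 553 loci were higher and 471 lower. In the class with the most total mRNA, 36 loci were higher and 62 lower. The direction with more loci changed along the ranking: up to class 7 more loci were higher than lower, and from class 8 upward more were lower than higher. The counts of class 8 were close, with 47 higher and 54 lower. The balance over all loci turned with the scaling, and these classes were counted only as scaled by the authors.

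The largest rise with at least 10 scaled fragments in the lower group was at XLOC_002882. Its polysomal level was 46.8 scaled fragments at 0 h, 2161 at 2 h and 8330 at 4 h in the authors' means. The libraries at 4 h held 8601, 11441 and 4949, all far above the 0 h mean, with an SD of 3254. The log2 change was 7.45 (174-fold), and from 6.70 to 7.90 in single libraries. By scaled fragments the locus moved from rank 9454 in the polysomal pool at 0 h to rank 149 at 4 h. Its total mRNA was 5.92, 5.89 and 12.4 CPM (fragments scaled by library size) at 0 h and 957, 1084 and 810 at 4 h, with no overlap. Total mRNA changed by 6.91 on the log2 scale, with a standard error of 0.28 and an edgeR adjusted p of 6.86e-08.

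The largest fall was at XLOC_030527, which ranked 15 in the polysomal pool at 0 h and 1237 at 4 h. Its level was 74995 scaled fragments at 0 h, 72932 at 2 h and 1269 at 4 h. The libraries at 4 h held 1606, 412 and 1790. Library 2 was the lowest, and all 3 were far below the 0 h mean. The log2 change was -5.88, a 59.0-fold fall, and the locus went from 0.748% of the polysomal pool to 0.0126%. In total mRNA the 0 h libraries varied widely, with 817, 6353 and 3382 CPM, and the 4 h libraries held 236, 48.0 and 215 CPM. In the edgeR fit this was a log2 change of -4.40 with a standard error of 0.74 and an adjusted p of 0.000903. The 4 h level was lower in 3 of 3 libraries. At 2 h the total libraries still held 6630, 4217 and 11177 CPM.

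XLOC_014889 had the largest fall among loci whose total mRNA changed by less than 1.2-fold. Its polysomal level was 1486 scaled fragments at 0 h, 521 at 2 h and 425 at 4 h. The libraries at 4 h held 439, 390 and 445, close to each other and all below the 0 h mean. The log2 change was -1.80, a 3.49-fold fall. Its total mRNA was 141, 130 and 141 CPM at 0 h and 132, 133 and 147 CPM at 4 h, with overlapping groups. The edgeR fit put the total difference at -0.0020 on the log2 scale with a standard error of 0.10 and an adjusted p of 0.991. With a relative length of 0.160 the locus belonged to the shortest class, and set against loci of like length its polysomal change was -0.97. No locus met the same rule in the upward direction.

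**Figure D5:**
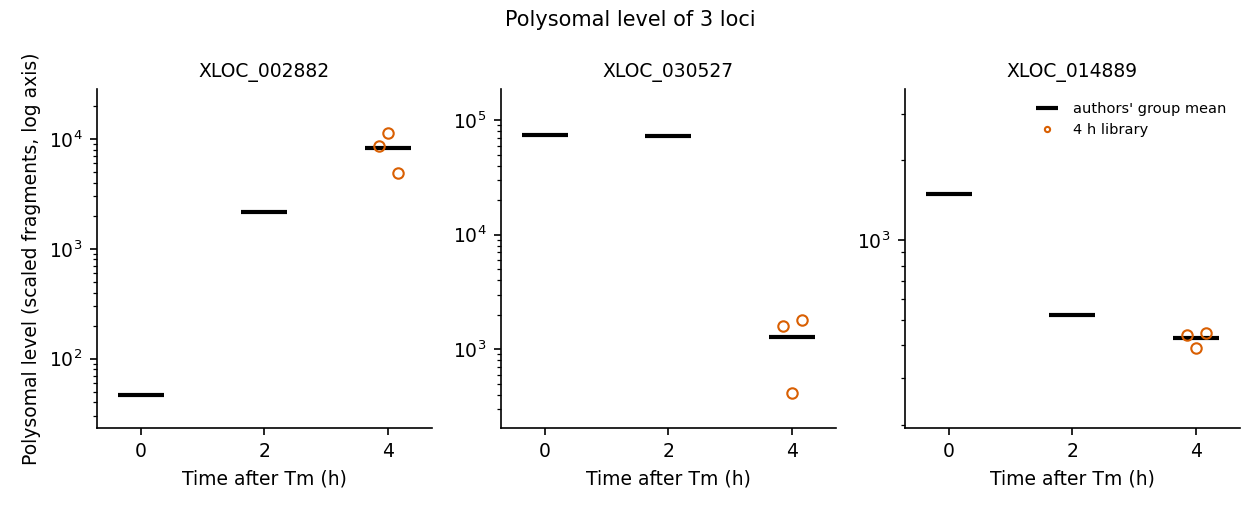
The panels show the polysomal level of 3 loci in scaled fragments (log axis) at 0 h, 2 h and 4 h after Tm. Bars are the authors' group means and open circles the 3 libraries at 4 h. XLOC_002882 goes from 46.8 to 8330, XLOC_030527 from 74995 to 1269 with its 2 h level still at 72932, and XLOC_014889 from 1486 to 425 with its 2 h level at 521.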

How the data were processed

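Stranded poly(A) libraries were made from 0.5 μg of polysomal and 2 μg of total RNA and sequenced as single-end reads of 50 bases. The authors used TopHat2 2.0.13 for alignment against the GRCm38 transcriptome, then Cuffdiff (Cufflinks 2.2.1), correcting for sequence bias and multiply aligned reads. The annotation release is not given in the sources used here. The authors deposited raw fragment counts and FPKM per read group, and group means, a signal of fragments divided by library size factors set across the whole table. Of the read groups, 12 of 81 were used and 69 were not, since they belong to groups outside the comparison or to polysomal groups whose libraries could not be told apart. Of the group means, 5 of 27 were used and 22 were not. The second pool (10 h) numbers its loci separately and was not used. Read groups are numbered by the table, not by the labels, so a number within a group is only a name.

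For total RNA, the counts of 9 libraries (0 h, 2 h and 4 h) entered edgeR 4.0.16 under R 4.3.3 (TMM, filterByExpr, quasi-likelihood test, 1 shared estimate of the spread), after 47 loci without a complete estimate were left out. The p-values measure only the spread between these libraries. The standard errors given were derived as the size of the log2 change divided by the square root of the test's F statistic. DESeq2 1.42.0 was an alternative, and 2 alternatives on skipped or failed loci were added after seeing the data. Other values were computed with Python 3.11.15, numpy 2.4.6 and pandas 2.3.3. Relative length used total libraries with at least 20 fragments, and the length trend was the median change in 50 classes. Steps were tested on simulated data. Named loci were the largest rise and fall with all 3 libraries at 4 h past 2-fold and at least 10 scaled fragments in the lower group, and the same among loci with total mRNA within 1.2-fold. The loci, groups and tests were chosen with earlier results of these data known.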

Additional observations from a re-analysis of the deposited data

How the results depend on the processing

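The depth gave each included locus at least 50 scaled fragments on average. The polysomal change of loci below that was counted only at the edge of the minimum or with another minimum. The spread at 0 h was not measured, and no p-value stands behind a polysomal change. The counts of higher and lower loci, 622 and 466, became 1635 and 1367 at 1.5-fold and 110 and 28 at 4-fold, 410 and 284 at a minimum mean of 200, and 795 and 717 at a minimum of 10, all by construction. With the length trend removed they were 565 and 263, a share of 68.2% higher among changed loci against 57.2%. Without each 4 h library in turn they ranged from 550 to 704 and from 432 to 586. Loci with all remaining 4 h libraries past 2-fold ranged, with each of these left out, from 424 to 545 higher and from 294 to 427 lower, the highest without library 3.

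Without the minimum fold change in total mRNA, the median polysomal change was 0.74 in loci called higher, -0.50 in those called lower and -0.015 in those not called. Since more loci were called, 597 higher loci were also called higher in total mRNA, and 229 lower loci were also called lower. With the median change of all loci set to 0, a shift of 0.04, the median of loci not called was -0.021. The total change of XLOC_014889, near 0 throughout, was 8.02e-05 with every locus of at least 1 count tested, and from -0.052 to 0.027 with 1 total library left out. Libraries 1 and 3 alone put 13.9% and 14.0% of polysomal fragments in their 10 most abundant loci, against 13.7% in the mean. Beside the polysomal change of -0.97 for XLOC_014889 with the length trend removed, the other alternatives kept direction and side of the threshold or stayed within 1.5 times. With a replicate block by read group number, total mRNA gave 636 higher and 437 lower loci. Mice of 0 h and 4 h were different animals, so equal numbers do not stand for the same mouse. The deviations of the total libraries at 0 h and 4 h correlated from 0.00119 to 0.0723 for equal numbers and from -0.0522 to 0.0401 for unequal numbers.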
